A study of Mus musculus with 2 samples.

Results

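Strong insulation boundaries are 50 kb bins of the mouse genome across which unusually few chromatin contacts were counted. For each autosome bin, contacts between the 10 bins before it and the 10 bins after it were summed and expressed as log2 over the chromosome mean, here called insulation. A bin was kept when it had the lowest value within 10 bins on either side and lay at least 0.8 (log2, 1.74-fold) below the highest value on each side in the vehicle library, with such a bin at most 1 bin away in the GW4064 library. The rule found 683 boundaries among 49264 autosome bins, of which 47832 had a value in both libraries. They make up 1.43% of the bins with a value.

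The contacts come from Foxa2 HiChIP, in which DNA ends that lie close together in the nucleus are ligated and the ligated pairs are enriched with an antiserum against Foxa2, a forkhead pioneer factor of liver. Both groups are liver of wildtype mice killed 4 h after a single oral gavage, one with vehicle (propylene glycol with Tween 80) and one with the same vehicle holding GW4064, which activates FXR, the nuclear receptor for bile acids. Each group is 1 library, so no test of the treatment was possible and differences compare 2 libraries rather than 2 conditions. The sources used here do not give strain, sex, age, dose or whether livers of several mice were pooled. The contacts hold no RNA, so the labelled tissue was not checked against expressed markers. In all, 22686004 contacts were counted in the vehicle library and 29003442 in the GW4064 library. At the boundaries this gave a median of 140 crossing contacts per bin in the vehicle library and 190 in the GW4064 library.

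Mammalian chromosomes are folded into domains within which DNA segments meet more often than they meet segments of the next domain. Cohesin extrudes loops of chromatin and is halted by CTCF, a zinc finger protein bound to DNA, and many domain borders carry CTCF sites. Borders are also known to lie near active housekeeping genes and transfer RNA genes and at switches between the open A and the closed B compartment.

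Promoter sequences were available for 562 of the 726 protein-coding genes that overlapped boundary bins (RefSeq, GRCm38.p6, the assembly of mm10), covering 250 bases before to 50 after each gene start. The core motif of CTCF, sought on both strands, was found in 2 of the 373 promoters that lay in boundary bins (0.536%, exact 95% interval 0.065 to 1.92), against 116 of 20085 autosome promoters (0.578%). The 2 matches are printed because they are the boundary promoters that carry this motif; capitals mark it, and each run is 5′ to 3′ on the strand of its gene and ends before the gene start.
Twistnb, plus strand, chr12:33429430-33429561: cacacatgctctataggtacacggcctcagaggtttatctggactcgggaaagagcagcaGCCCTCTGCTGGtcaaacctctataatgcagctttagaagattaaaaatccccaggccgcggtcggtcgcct
Nudt17, minus strand, chr3:96708561-96708637: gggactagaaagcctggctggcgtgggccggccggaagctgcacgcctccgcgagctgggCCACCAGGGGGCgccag
The motif ends 122 bases before the start of Twistnb, which encodes a subunit of RNA polymerase I, and 5 bases before that of Nudt17, a Nudix hydrolase gene. The boundary at Twistnb (chr12:33400001-33450000) had 126 crossing contacts in the vehicle library and 175 in the GW4064 library, and that at Nudt17 (chr3:96700001-96750000) had 178 and 194. The forkhead motif TGTTTAC, sought on both strands without regard to overlap with the CTCF motif, was in 4 of the 373 boundary promoters (1.07%, 0.293 to 2.72), against 610 of the 20085 autosome promoters (3.04%). Within 1 bin of a boundary it was in 25 of 1127 (2.22%, 1.44 to 3.26). Such a match is a description of letters in a short window, and most of each 50 kb bin was not searched.

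The values that chose the boundaries are given as a description. The vehicle library had 911 bins that met the rule and the GW4064 library 992, so the shared boundaries are 74.97% of the former and were matched to 68.9% of the latter. The lowest bin was the same in both libraries at 465 boundaries, 1 bin earlier in the GW4064 library at 112 and 1 bin later at 106. Where the bins differed, GW4064 depths were taken at the GW4064 bin. Other GW4064 values, such as crossing contacts and coverage, were taken at the vehicle bin unless stated. Depth, taken as the smaller of the drops on both sides and in both libraries, had a median of 1.08 (log2) and quartiles of 0.94 and 1.34. It was under 1.0 at 259 boundaries and at least 1.5 at 113. A further 638 bins were minima shared in the same way with a depth of 0.2 to 0.8, and these weaker minima serve below as the closest comparison.

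**Figure D1:**
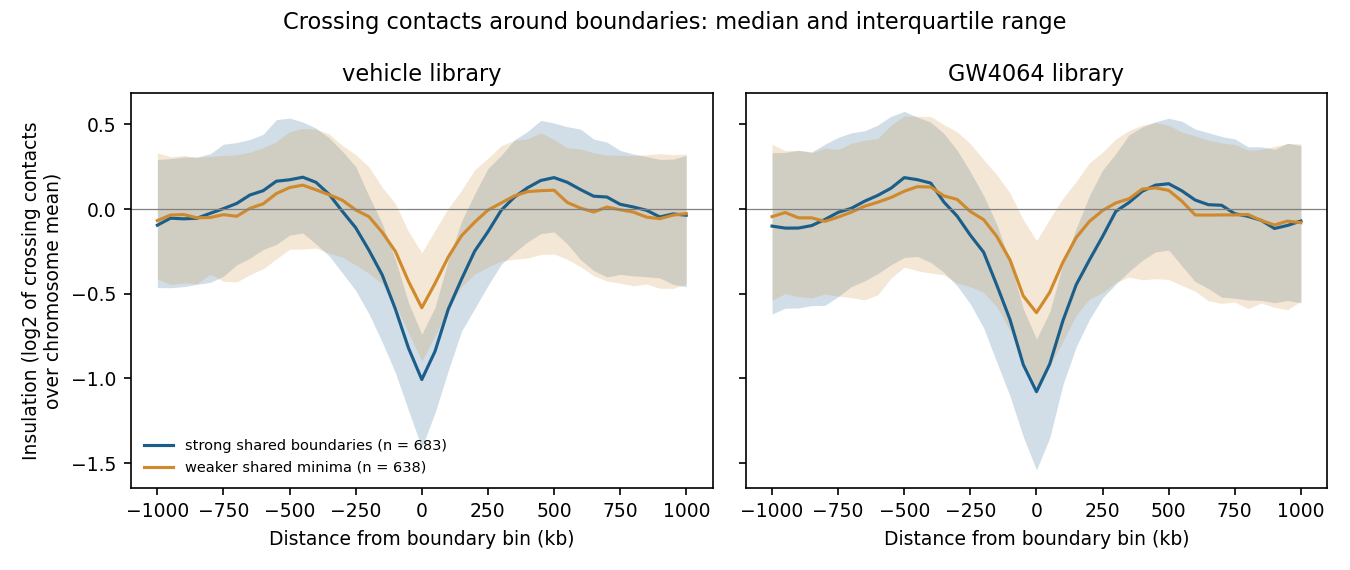
Median insulation (log2 of crossing contacts over the chromosome mean, line) with its interquartile range (shading) against distance from the boundary bin in kb, for 683 strong shared boundaries (blue) and 638 weaker shared minima (orange) in each library. The strong boundaries reach a median of -1.01 in the vehicle library and -1.08 in the GW4064 library, and the weaker minima -0.58 and -0.61; the choice of bins fixes these dips.

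Nearly empty bins, whose contacts over both libraries were under 25% of the median bin, can lower a sum by themselves. Of 1732 such autosome bins, at least 1 lay among the 21 bins of the window at 41 boundaries, and at 3 the boundary bin itself was nearly empty. The 642 boundaries without one had a median depth of 1.07 and a greatest depth of 2.54, and the 41 with one had 1.28 and 4.74. Named boundaries below have no nearly empty bin in the window unless one is mentioned. Leading values are given for both sets where they differ.

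Just inside the depth threshold lay the bin of Dhx33, Derl2 and Mis12 on chromosome 11 (depth 0.80006), a bin with no protein-coding gene on chromosome 4 (0.80013) and the bin of Mrpl17 on chromosome 7 (0.80069, with 7 nearly empty bins). Just outside lay a gene-free bin on chromosome 16 (0.79992), the bin of Pik3r1 on chromosome 13 (0.79942) and a gene-free bin on chromosome 1 (0.79497). Depths of 0.79992 outside and 0.80006 inside leave no gap at the threshold. The crossing shares of these bins, defined next, ran from 6.74% to 10.99% inside and from 11.03% to 15.3% outside in the vehicle library.

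The crossing share is the number of contacts between the flanks, each of 10 bins, divided by that number plus the contacts among different bins of each flank. It had a median of 10.9% at the boundaries in the vehicle library and 10.8% in the GW4064 library, against 14.6% in both at the weaker minima and 20.3% in both over all other autosome bins. The lower quartile of boundaries was 9.14% in the vehicle library and 9.04% in the GW4064 library, and the upper quartile 12.6% and 12.7%. Even at boundaries, about 1 contact in 10 of those counted therefore joined both flanks.

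**Figure D2:**
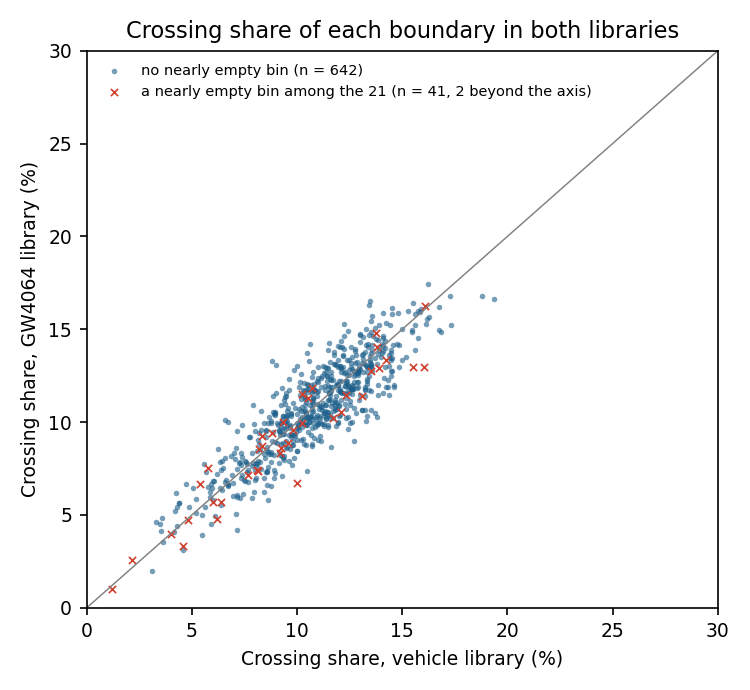
Crossing share of each boundary in the vehicle library (x axis, %) and in the GW4064 library (y axis, %), with the line of equal shares in grey. The 642 boundaries without a nearly empty bin (blue dots) lie along the line, and of the 41 with one (red crosses) 2 have shares beyond the axis. The medians over all 683 are 10.9% and 10.8%.

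The 12 deepest boundaries without a nearly empty bin held genes of very different kinds, and 2 of them held no protein-coding gene. The deepest was at the olfactory receptor genes Olfr763 and Olfr765 (chr10:129000001-129050000, mm10). It was crossed by 40 contacts in the vehicle library and 33 in the GW4064 library, a crossing share of 3.10% and 2.00%. Its depth was 2.54 in the vehicle library and 2.70 in the GW4064 library, the latter at the GW4064 minimum 1 bin earlier. The bin itself was covered like the rest of its chromosome, with all its contacts at -0.01 and 0.02 (log2 over the chromosome median).

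The bin of Cdc5l, a component of the splicing machinery, and of Spats1 (chr17:45400001-45450000) had 61 and 66 crossing contacts, shares of 5.99% and 5.78%. Inside Ctnna3 (chr10:63450001-63500000), which encodes alpha-T-catenin of cell junctions, 47 and 61 contacts crossed, and the shares were 3.64% and 3.56%. The bin of Shank3, a scaffold of excitatory synapses, Acr, the sperm protease acrosin, and Rabl2 (chr15:89550001-89600000) had 60 and 57, with shares of 5.46% and 3.93%. The deeper GW4064 library held more crossing contacts than the vehicle library in 2 of these 3 bins and fewer in the third.

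At Enam, which encodes a protein of tooth enamel, and Jchain, the joining chain of secreted antibodies (chr5:88500001-88550000), 82 and 132 contacts crossed, or 5.89% and 6.64%. A bin without protein-coding genes on chromosome 12 (chr12:69050001-69100000) had 53 and 81 crossing contacts. It separated a flank with no gene midpoint in 10 bins from one with 12. The second gene-free bin (chr8:112050001-112100000) had 58 and 112 and parted 13 gene midpoints from none. Both thus lay between a gene-rich and a gene-free flank.

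The gene-dense bin of Zmynd10, Rassf1 and Tusc2 (chr9:107550001-107600000, 10 genes) had 61 and 79 crossing contacts, shares of 5.98% and 6.45%. Zmynd10 is needed to assemble the motors of cilia and Rassf1 is a tumour suppressor. This bin was also poorly covered, with all its contacts at -0.70 in the vehicle library and -1.29 in the GW4064 library (log2 over the chromosome median); the part of low coverage in its depth was not tested. The other 11 of the deepest bins lay between -0.22 and 0.30 in the vehicle library and between -0.48 and 0.20 in the GW4064 library.

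The remaining 4 had crossing shares of 4.29% to 6.07% in the vehicle library and 4.38% to 6.86% in the GW4064 library. They lay at Ttll7, a tubulin-modifying enzyme (chr3:146950001-147000000), Dcdc2a, a doublecortin family gene (chr13:25150001-25200000), and Pglyrp4, a peptidoglycan recognition protein (chr3:90700001-90750000). The last of them held Eif1, a translation initiation factor, Gast, the hormone gastrin, and Hap1, a partner of huntingtin (chr11:100300001-100350000).

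The rule did not sum contacts between the outer flanks, which were low around the boundaries and not only at the boundary bin. The outer flanks, bins 11 to 20 before against bins 11 to 20 after, had a median of -0.38 (log2 over the chromosome mean, exact 95% interval of the median -0.42 to -0.32) in the vehicle library and -0.46 (-0.52 to -0.39) in the GW4064 library. All other autosome bins had medians of -0.15 and -0.23, and the weaker minima -0.11 and -0.20. Bins 5 to 10 away from a boundary were as low as the boundary bins, at -0.38 (-0.40 to -0.36) and -0.47 (-0.48 to -0.45), and all pairs of bins in their outer flanks also span that boundary. Intervals of medians and shares treat bins as independent, which neighbouring bins are not, and cover sampling of bins or counting only. Without nearly empty bins the boundaries had -0.36 and -0.45. The shortfall was uneven, since the upper quartile was 0.06 in the vehicle library and 0.02 in the GW4064 library. At boundaries with a depth of at least 1.5 the medians were -0.94 and -1.10, and at those under 1.0 they were -0.21 and -0.31.

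Averaged over the 624 boundaries with no nearly empty bin within 20 bins on either side, contacts that spanned the boundary were compared with the number expected at the same distance on the same chromosome. The shortfall was deepest at 200 to 300 kb and faded with distance. The ratio of observed to expected was 0.474 at 100 kb in the vehicle library and 0.528 in the GW4064 library, and 0.453 and 0.458 at 200 kb. It then rose to 0.514 and 0.497 at 500 kb, 0.730 and 0.696 at 1000 kb and 0.898 and 0.854 at 2000 kb. The rule summed the spanning pairs up to 500 kb, so a shortfall there was fixed by the choice of bins. Distances beyond 1000 kb join bins that the rule did not sum. Pairs that stayed on one side were above expectation, at 1.05 and 1.03 times at 100 kb and 1.30 and 1.29 times at 800 kb. The rule also required a higher sum on each side, and such sums hold pairs on one side, so this excess follows in part from the choice. The weaker minima (596 averaged), which differ from the boundaries in depth by choice, had spanning ratios of 0.595 and 0.655 at 100 kb. They had returned to 0.955 and 0.952 at 1000 kb.

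**Figure D3:**
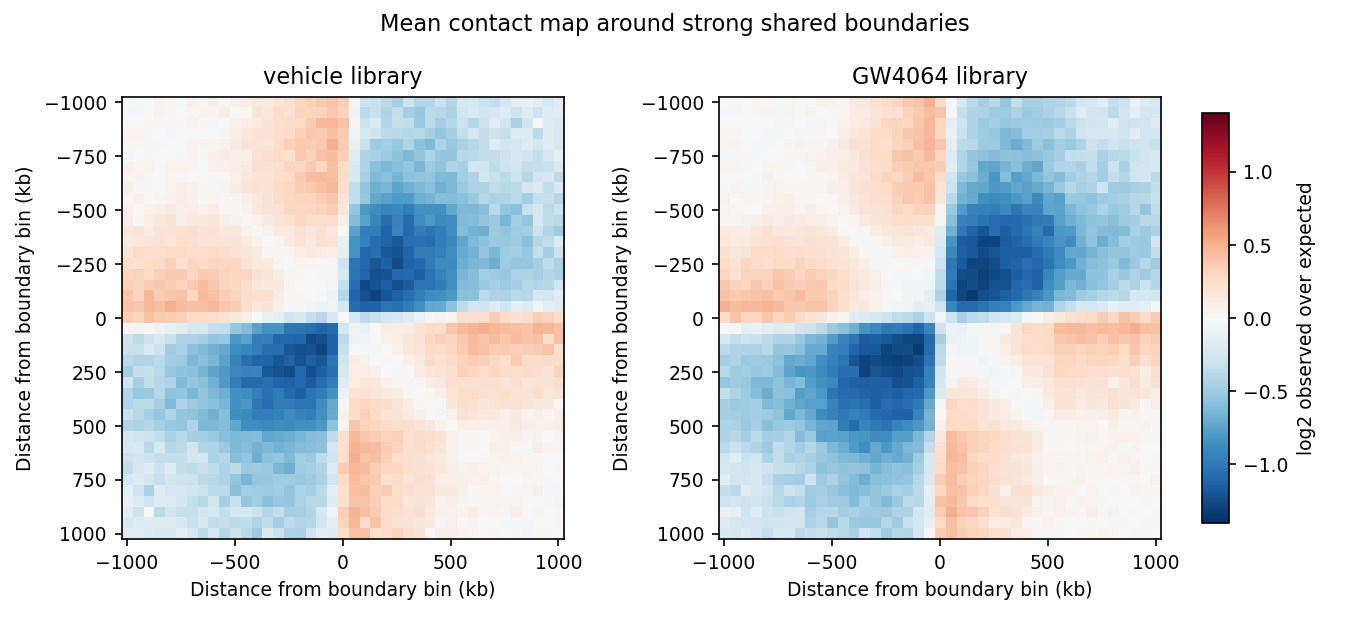
Mean observed over expected contacts (log2 colour scale) for pairs of bins within 1000 kb of the boundary, averaged over 624 boundaries with no nearly empty bin in this span in each library; both axes give distance from the boundary bin in kb. The blue off-diagonal quadrants are contacts that span the boundary (0.453 and 0.458 of expectation at 200 kb), and the red stripes leaving the centre are contacts of bins at or beside the boundary with their own side. The choice of bins favours both patterns.

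Contacts between neighbouring boundaries were also above expectation. For the 248 pairs of neighbouring boundaries 600 kb to 2 Mb apart without nearly empty bins beside them, the pair of boundary bins itself held 504 contacts in the vehicle library, 1.74 times expectation (exact Poisson interval 1.59 to 1.90), and 698 in the GW4064 library, 1.76 times (1.63 to 1.90). A wider centre around this pair held 3880 contacts in the vehicle library, 1.48 times expectation, and 5242 in the GW4064 library, 1.46 times. Bin pairs just inside both boundaries had 1.57 times expectation in both libraries. This was above the wider centre and below the pair of boundary bins itself, so only that pair exceeded the inside of the domain. Bin pairs just outside both had 0.866 and 0.850. Pairs displaced to before both or after both boundaries had 0.946 and 0.864 in the vehicle library and 0.882 and 0.819 in the GW4064 library. The excess was therefore at the corner of the domain and inside it, and not on the other 3 sides. This comparison was chosen with results of these data in view, and part of the difference between inside and outside follows from choosing bins with few crossing contacts. In the averaged maps, boundary bins also exceeded expectation with bins 1000 kb before and after them. The ratios were 1.27 and 1.20 in the vehicle library and 1.22 and 1.28 in the GW4064 library. Boundary bins paired with other bins at equal distance were not compared, so the part of this general excess was not tested.

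The boundary bins themselves were not places of low coverage. All contacts of a boundary bin had a median of 0.01 (log2 over the chromosome median, -0.01 to 0.04) in the vehicle library and -0.03 (-0.05 to 0.01) in the GW4064 library. In raw numbers this was a median of 821 contacts per bin in the vehicle library, against 805 in all other autosome bins, and 1018 in the GW4064 library, against 1020. Coverage lay within 1.5-fold of the chromosome median at 96.3% of boundaries in the vehicle library and 90.5% in the GW4064 library, against 95.4% and 85.6% of other bins. Contacts within the same bin had a median of 0.00 (-0.04 to 0.04) in the vehicle library and -0.08 (-0.10 to -0.04) in the GW4064 library, so a slightly low value was seen in the second library. The rule sums the flanks and not the boundary bin. In the bins just before and just after it, all contacts were at -0.031 and -0.044 in the vehicle library and -0.070 and -0.075 in the GW4064 library. Same-bin contacts there were at -0.081 and -0.063, and at -0.145 and -0.104. The part of this lower coverage in the insulation was not tested.

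What differed was the reach of the contacts. Boundary bins had fewer contacts with bins up to 1 Mb away, with medians of -0.14 (-0.18 to -0.09) in the vehicle library and -0.19 (-0.23 to -0.13) in the GW4064 library. Their contacts beyond 1 Mb on the same chromosome were more numerous, with 0.14 (0.11 to 0.18) and 0.13 (0.07 to 0.16). Contacts with other chromosomes were at 0.01 and 0.00. The weaker minima had -0.00 and -0.02 up to 1 Mb and 0.09 and 0.08 beyond it. Bins 5 to 10 away from a boundary had -0.01 and -0.03 up to 1 Mb and -0.04 and -0.08 beyond it. No test was made of these differences, and the bins share contacts with the sums that the rule used.

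A boundary bin sent 56.2% of its contacts with both flanks to the side it favoured in the vehicle library (median, 55.6 to 56.7) and 56.8% in the GW4064 library (56.2 to 57.3), against 56.0% and 55.9% in other bins. At 50 kb, the boundary bins therefore leaned to one side within 1 percentage point of other bins.

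Protein-coding genes overlapped 463 of the 683 boundary bins, or 67.8% (exact 95% interval 64.1 to 71.3), against 58.0% of all other autosome bins, 59.8% of bins 5 to 10 away from a boundary and 63.5% of the weaker minima. The difference from other bins was larger for the ends of genes. A start or an end of a protein-coding gene lay in 384 boundary bins (56.2%, 52.4 to 59.98), against 36.7% of other bins and 35.7% of bins 5 to 10 away. The weaker minima were between, at 47.8% (43.9 to 51.8). In contrast, the bin was wholly inside a gene at 79 boundaries (11.6%, 9.27 to 14.2), against 21.3% of other bins and 24.1% of bins 5 to 10 away. No protein-coding gene was present at 220 (32.2%). Genes were not used by the rule, and with the 41 boundaries that have a nearly empty bin left out the shares were 67.8%, 55.8% and 11.99%. Within classes of surrounding gene density, given below, the difference in overlap with genes was smaller.

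**Figure D4:**
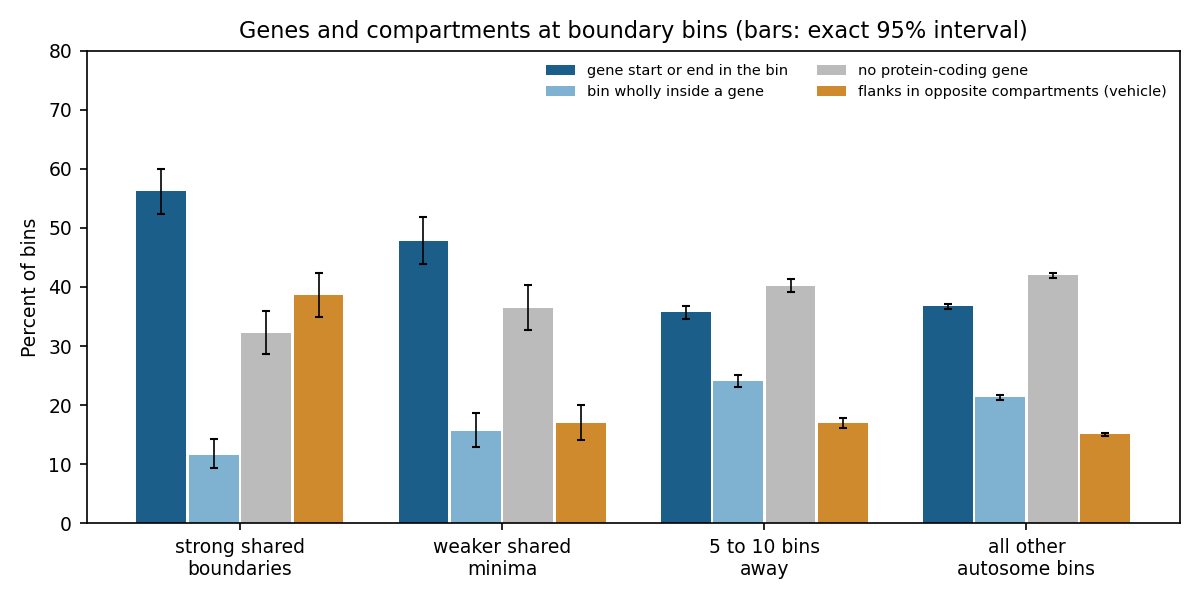
Percent of bins with a protein-coding gene start or end, wholly inside a gene, without a gene, or with flanks in opposite compartments in the vehicle library, for 683 strong shared boundaries, 638 weaker minima, bins 5 to 10 away and all other autosome bins; error bars are exact 95% intervals. Starts or ends of genes are in 56.2% of boundaries and 36.7% of other bins, and opposite compartments flank 38.6% and 15.03%.

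Boundaries averaged 1.06 overlapping protein-coding genes per bin against 0.839 in other bins. Counted by gene midpoints, the boundary bin had 0.602 genes, the bin before it 0.580 and the bin after it 0.559. At 1000 kb the values were 0.410 before and 0.430 after, close to the 0.424 of all other bins. The rise was thus local and spanned a few bins. Genes for long noncoding RNAs overlapped 30.6% of boundaries and 27.7% of other bins, an interval (27.2 to 34.2) that includes the latter. Transfer RNA genes were in 7 boundary bins (1.02%, 0.413 to 2.10), against 0.303% of other bins and 1.10% of the weaker minima.

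**Figure D5:**
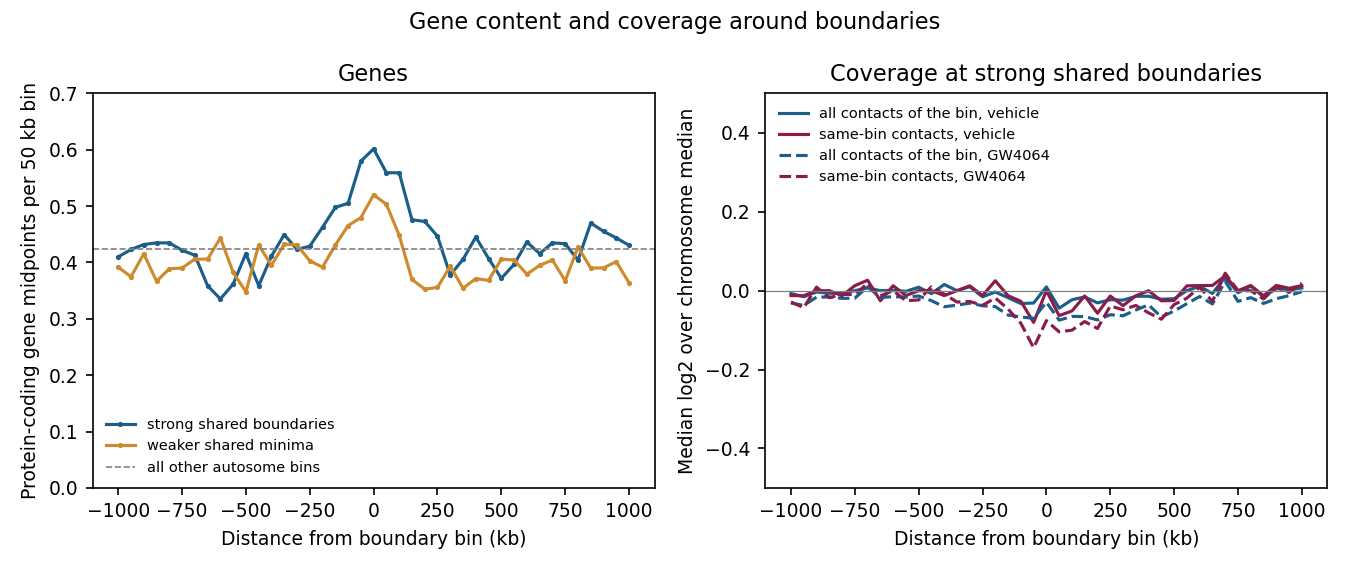
Left, protein-coding gene midpoints per 50 kb bin against distance from the boundary bin in kb, for strong shared boundaries (blue), weaker minima (orange) and all other autosome bins (dashed line, 0.424). Right, median coverage at strong shared boundaries (log2 over the chromosome median) for all contacts of a bin and for same-bin contacts in both libraries; genes peak at 0.602 at the boundary, and the medians at the boundary lie between -0.08 and 0.01.

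Gene direction did not differ detectably between the sides. Of the gene starts in the 3 bins before a boundary, 50.3% (47.0 to 53.7) were on the plus strand, as were 52.7% (47.2 to 58.2) in the boundary bin and 52.8% (49.4 to 56.1) in the 3 bins after it. The share over all autosome gene starts was 49.95%. Gene starts were taken from the promoter sequences, of which none lay on chromosome 18.

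Boundaries were scarcest where genes were sparse, and densest where genes were of middling density. With 0 to 2 gene midpoints in the surrounding 21 bins, 84 of 14398 bins were boundaries (0.583%, 0.466 to 0.722). With 3 to 12 midpoints it was 459 of 22084 (2.08%, 1.89 to 2.28), and with 13 or more, 140 of 11350 (1.23%, 1.04 to 1.45). From the sparsest to the densest class, a protein-coding gene overlapped 33.3%, 66.9% and 91.4% of boundary bins. The shares of other bins in these classes were 27.3%, 62.4% and 88.6%. Boundaries in the densest class had the lowest crossing shares, 9.33% in the vehicle library and 9.02% in the GW4064 library, against 12.2% and 12.2% in the class with fewest genes. Bins that are not boundaries showed the same order, with vehicle medians of 22.6%, 19.4% and 18.5% from the sparsest to the densest class, against 12.2%, 11.1% and 9.33% at boundaries. Coverage fell as gene density rose in both libraries. Boundary bins of the densest class had all contacts at -0.04 and -0.21 (log2 over the chromosome median) and those of the sparsest at 0.15 and 0.23. Other bins were at -0.16 and -0.36 in the densest class and at 0.11 and 0.23 in the sparsest. The part of coverage in the lower shares was not tested.

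Flanks of unlike gene content were more frequent than elsewhere. At 44 boundaries (6.44%, 4.72 to 8.55), one flank of 10 bins held at least 10 gene midpoints and the other at most 1, against 1.44% of other bins and 2.04% of the weaker minima. Compartments were taken from the first eigenvector of the contact correlation at 250 kb, oriented by gene density (r of 0.25 to 0.70 by chromosome), and share cis contacts with the rule. Of 679 boundaries with a value, 262 (38.6%) had flanks in opposite compartments in the vehicle library and 271 (39.9%) in the GW4064 library. Other bins had 15.03% and 15.5%, and the weaker minima 16.9% and 16.5%, close to the bins 5 to 10 away from a boundary at 16.97% and 17.2%.

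The 262 boundaries between opposite compartments in the vehicle library had a median depth of 1.14 and crossing shares of 9.66% and 9.95%. The 417 within one compartment had a depth of 1.04 and shares of 11.6% and 11.5%. Outer flanks were at -0.53 and -0.65 for the former and -0.28 and -0.37 for the latter. Bins 5 to 10 away from any boundary lay between, at -0.38 and -0.47. Those bins were not split by the compartments of their boundary, so they are not the matched neighbours of either group. The 202 boundaries with both flanks in the gene-poor compartment had outer flanks at -0.06 and 0.03.

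The gene lists were compared with the 726 of 20665 protein-coding autosome genes that overlapped a boundary bin (3.51%) and with the 1569 in or within 1 bin of one (7.59%). Ribosomal protein and proteasome genes had shares above these and liver genes had shares below them, mostly with intervals wide enough to include them. Of 75 ribosomal protein genes, 5 overlapped a boundary bin (Rpl34, Rplp1, Rps12, Rps23 and Rps3a1) and 9 lay in or within 1 bin (12%, 5.64 to 21.6). Of 32 proteasome subunit genes the numbers were 3 (Psmc1, Psmc2 and Psmd7) and 4 (12.5%, 3.51 to 29.0). None of 31 other housekeeping genes was within 1 bin of a boundary, and of 49 nuclear genes of oxidative phosphorylation 1 overlapped a boundary bin (Cox4i1) and 4 were within 1 bin (8.16%). The 4 lists together had 9 of 187 genes in a boundary bin (4.81%, 2.22 to 8.94), an interval that includes the share of all genes. The median distance to a boundary was 1.3 Mb for ribosomal protein genes, 0.6 Mb for the other housekeeping genes and 1.05 Mb for all genes.

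Rps23 stood at the deepest of the ribosomal protein boundaries (chr13:90900001-90950000), with a depth of 2.19 in the vehicle library and 1.97 in the GW4064 library. Contacts across it numbered 156 and 236, shares of 8.52% and 9.54%. This boundary had 1 gene midpoint in each flank of 10 bins, so it did not divide a gene-rich from a gene-poor stretch. Rps12 (chr10:23750001-23800000) did, with no midpoint before it and 20 after it, and its depth was 0.89 and 1.34. Psmc2 (chr5:21800001-21850000) parted 10 midpoints from 1 with 122 and 214 crossing contacts, and Psmd7 (chr8:107550001-107600000) parted 9 from 0 with 98 and 131.

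The 5 liver lists (secreted hepatocyte proteins, liver transcription factors, FXR-induced genes, bile acid synthesis and transport, and cytochromes P450 with conjugation) held 174 distinct genes. Only Fmo5, a flavin-containing monooxygenase, overlapped a boundary bin (1 of 174, 0.575%, 0.0145 to 3.16), and 8 genes were in or within 1 bin (4.598%, 2.01 to 8.86). The first interval lies below the 3.51% of all genes and the second includes their 7.59%. The boundary at Fmo5 (chr3:97600001-97650000) had 148 and 187 crossing contacts and shares of 10.4% and 10.6%. Within 1 bin lay the secreted proteins Ahsg, F11 and Hp, the FXR-induced gene Osgin1, and Cyp7b1 and Hsd17b4 of bile acid synthesis, besides Cyp2e1. No liver transcription factor of 36 was within 1 bin (exact upper limit 9.74%). These lists were chosen with results of the data known, and neighbouring genes share boundaries, so the intervals are too narrow.

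Genes of the bile acid feedback loop lay at varied distances from the nearest boundary, where the median over all protein-coding autosome genes was 1.05 Mb. Cyp7a1, whose enzyme limits the rate at which bile acids are made, was nearest, 174 kb from a boundary at Nsmaf with 153 crossing contacts in the vehicle library and 242 in the GW4064 library (10.8% and 11.8%). Nr1h4, the gene of FXR, was 366 kb from a boundary inside Anks1b whose depth was 2.08 and 1.72, with 91 and 160 crossing contacts (6.35% and 7.86%). Cyp8b1, which sets the ratio of the bile acids made, was 484 kb away, the export pump gene Abcb11 688 kb and Foxa2 743 kb. The basolateral transporter genes Slc51b and Slc51a were 1263 and 1926 kb away, and Nr0b2, the gene of the repressor SHP, 1703 kb.

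Clock genes had 3 of 23 within 1 bin, and Nr1d2, the nuclear receptor REV-ERB beta, overlapped a boundary bin (chr14:18200001-18250000) with 182 and 227 crossing contacts. Per3 and Usp2 were 1 bin away from boundaries with depths of 1.501 and 1.589 in the vehicle library and 1.956 and 1.456 in the GW4064 library. Immediate early and stress genes had 1 of 36 within 1 bin (Ier5), and developmental homeobox and patterning genes 1 of 72 (Tfap2a).

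Of 41 Hox genes 7 overlapped a boundary bin and 11 were within 1 bin, but all were at a single bin in the HoxA cluster (chr6:52200001-52250000), which holds Hoxa3, Hoxa5, Hoxa6, Hoxa7, Hoxa9, Hoxa10 and Hoxa11. It had 232 and 302 crossing contacts, shares of 16.7% and 14.95%, and depths of 0.84 and 0.87, near the threshold. Of 22 genes listed as lying at domain borders known from other work, 0 overlapped a boundary bin and only Hoxa13 was within 1 bin. That is 4.55% (0.115 to 22.8), against 7.59% of all genes. The median distance to a boundary was 1.4 Mb for this list and 1.05 Mb for all genes.

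Boundaries lay in 3 long neuronal genes. Dlg2, a synaptic scaffold gene that spans 1973 kb, had one at chr7:90500001-90550000 with shares of 10.9% and 11.8%, and the neurexin gene Nrxn3, of 1612 kb, had one at chr12:89350001-89400000 with 12.8% and 13.2%. Kcnd2, a potassium channel gene of 514 kb, had one at an end of the gene (chr6:21700001-21750000) with 8.78% and 8.40%. Neuronal genes in all had 3 of 40 overlapping a boundary bin and 4 within 1 bin.

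Some genes that mark other cells of liver overlapped boundary bins. Adgre1, which encodes the macrophage marker F4/80, overlapped a boundary bin (chr17:57350001-57400000) with a depth of 1.75 and 2.24 and only 64 crossing contacts in each library, shares of 6.12% and 4.94%. Its flanks held 21 and 2 gene midpoints. Ptprc, the leukocyte antigen CD45, overlapped another with shares of 15.2% and 13.5%. Of 23 Kupffer and leukocyte markers 4 were within 1 bin (17.4%, 4.95 to 38.8), and of 31 endothelial, stellate and cholangiocyte markers also 4 (12.9%, 3.63 to 29.8), among them Col1a2 and Epcam. Both intervals include the 7.59% of all genes. The share of these cells in the tissue was not measured.

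Gene families grouped by symbol after their values were seen lay on both sides of the 7.59% of all genes. Olfactory receptor genes had 39 of 1104 in or within 1 bin (3.53%), vomeronasal receptor genes 12 of 354 (3.39%) and zinc finger genes 17 of 391 (4.35%). The clustered protocadherins had 21 of 57 within 1 bin (36.8%, 24.4 to 50.7) and 0 overlapping one, and all belong to 1 locus. Members of such families lie side by side, so genes are not independent counts.

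Boundaries were found on every autosome, from 1.03 per 100 bins on chromosome 14 (0.668 to 1.52) to 1.69 on chromosomes 1 (1.31 to 2.15) and 3 (1.27 to 2.21). These intervals overlap. Neighbouring boundaries were a median of 2.4 Mb apart (2.2 to 2.6, quartiles 1.29 and 4.51, 664 spacings), and the rule itself keeps boundaries more than 10 bins apart. The closest were 0.55 Mb apart, 110 spacings were at most 1 Mb and 27 exceeded 10 Mb. The longest stretch without one was 18.6 Mb on chromosome 16 (chr16:30550001-49100000) and held 164 protein-coding genes.

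The 2 libraries were compared by the odds ratio of crossing against within-flank contacts, GW4064 over vehicle, which does not scale with the depth of a library. Its median over the boundaries was -0.02 (log2, -0.03 to 0.00), against -0.00 over all other bins. Where the boundary was the same bin in both libraries the median was -0.05 (-0.06 to -0.03, 465 boundaries), a slightly lower crossing in the GW4064 library. Where it was 1 bin apart the median was 0.06 at the vehicle bin and -0.11 at the GW4064 bin, as follows from each bin being the lowest of its own library. Single boundaries had wide counting intervals. The interval (normal approximation) lay below 0 at 33 boundaries (4.83%; 6.31% of all bins) and above 0 at 25 (3.66%; 5.7% of all bins), lower shares than in the background in both directions. The intervals printed below for single boundaries are exact conditional ones, by which 30 boundaries lay below 0 and 25 above. Boundaries have fewer crossing contacts than other bins (a median of 140 against 271 in the vehicle library), which widens their intervals.

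An odds ratio at least 1.5-fold lower in the GW4064 library was found at 5 boundaries (0.732%; background 0.245%), and one at least 1.5-fold higher at 5 (0.732%; background 0.401%). All 10 had fewer than 100 crossing contacts in at least 1 library. Of the 531 boundaries with at least 100 in each, 0 were past 1.5-fold in either direction, where the background was 0.115% lower and 0.0541% higher. The lowest was the bin of Rrm1, a subunit of ribonucleotide reductase, with Olfr543, Olfr544 and Olfr545 (chr7:102450001-102500000), where 108 contacts crossed in the vehicle library and 90 in the GW4064 library (-0.81, -1.24 to -0.38). The others that were lower lay at Olfr763 and Olfr765, Mrpl17, Tsn, and Madcam1 with Tpgs1, Cdc34 and Gzmm.

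Among the higher ones, the bin of Vdac2, a channel of the outer mitochondrial membrane, with Comtd1 (chr14:21800001-21850000) had 72 and 147 crossing contacts (0.67, 0.24 to 1.12). The others were at Nupl1, Phactr1, a gene-free bin on chromosome 9, and Pramel40 with Pramel39, where only 2 and 6 contacts crossed amid 19 nearly empty bins. All these odds ratios, lower and higher, were taken at the vehicle bin. The GW4064 boundary lay 1 bin away at Vdac2, Phactr1, the gene-free bin and Pramel40, and at Olfr763 among the lower ones. At such boundaries the choice of the vehicle bin favours a higher ratio.

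Among boundaries with at least 100 crossing contacts in each library and without a nearly empty bin, the lowest odds ratios were at B3gnt9 and Tradd, an adaptor of TNF receptors (chr8:105250001-105300000, 185 and 143 crossing contacts, -0.57, -0.91 to -0.22), at Tph2, the neuronal enzyme of serotonin synthesis (160 and 159, -0.56, -0.90 to -0.22), and at Rps12 with Slc18b1 (206 and 210, -0.48, -0.79 to -0.18). The first of these bins was also much less covered in the GW4064 library, with all its contacts at -0.83 against -0.16 in the vehicle library; the part of coverage was not tested. Highest were the bin of Rhoj, Gphb5 and Ppp2r5e (114 and 202, 0.52, 0.16 to 0.88), that of Zpbp (122 and 257, 0.48, 0.14 to 0.82) and that of Icos, a costimulatory receptor of T cells (102 and 196, 0.45, 0.09 to 0.83). At Rhoj and Zpbp the GW4064 boundary lay 1 bin before the vehicle bin, and the choice of bin there favours a higher ratio. At B3gnt9 it lay 1 bin after, and at Icos, Tph2 and Rps12 it was the same bin. These 6 were picked as the ends of the distribution, and with 1 library per group a treatment and a library difference cannot be told apart.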

How the data were processed

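Foxa2 HiChIP contacts from 1 vehicle and 1 GW4064 library were used. The deposited matrices hold raw counts of contacts per pair of 50 kb bins, and the deposited bin tables hold chromosome, position and a bin number of no other unit. The submitters' processing notes name mm10, HiC-Pro and Bowtie2 2.2.9. The sources used here give neither the version of HiC-Pro nor how reads and duplicates were filtered. Bins with a sum of 0 or fewer than 10 bins on a side have no insulation value. Gene positions are from RefSeq on GRCm38.p6. Shares carry exact Clopper-Pearson 95% intervals and medians exact order-statistic intervals, for counting only. PCR duplicates may make contacts dependent. Named boundaries are the 12 deepest, the 3 highest and 3 lowest odds ratios with at least 100 crossing contacts in each library, and the 3 on each side of the threshold; examples of listed genes are those at a boundary. Boundaries, lists and rules were chosen with earlier results of these data known. Balanced matrices, other windows, depths and tolerances, and thinning were tried. Calling was tested on simulated data. Calculations ran in Python 3.11.15 with scipy 1.17.1, numpy 2.4.6 and pandas 2.3.3, and plots used matplotlib 3.10.9.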

Additional observations from a re-analysis of the deposited data

How the results depend on the processing

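No paired analysis was possible because each group has 1 library, and no library could be left out for the same reason. The number of shared boundaries was 1044 with sums over 5 bins, 185 with 20 bins and 424 at a depth of 1.0, and 465 to 972 under the 7 other settings. Of the 683, 83.3% were found again within 1 bin in balanced matrices, 81.1% with the crossing share in place of the sum and 94.1% after thinning the GW4064 library. With sums over 5 bins 73.35% were found again, and with 20 bins only 23.13%. Of the 1044 boundaries called with 5 bins, 47.99% lay within 1 bin of one of the 683, as did 85.41% of the 185 called with 20 bins. Median spacing was 1.65 Mb with 5 bins, 8.32 Mb with 20 bins, 1.85 Mb at a depth of 0.6, 3.85 Mb at 1.0 and 3.72 Mb for the same bin in both libraries. Opposite compartments flanked 30.6% with 5 bins, 55.7% with 20 bins, 33.8% at a depth of 0.6 and 43.8% at 1.0. Outer flanks were at -0.32 with 5 bins, -1.22 with 20 bins and -0.45 at a depth of 1.0; sums over 20 bins use those contacts. Vehicle coverage, 0.01 as reported, was -0.0165 in balanced matrices and -0.0153 with the crossing share. Same-bin contacts were 0.0594 with 20 bins, -0.0520 in balanced matrices and -0.0385 with the crossing share. The odds ratio was -0.0456 for the same bin in both libraries. A gene was in 72.0% for the same bin in both libraries and, by midpoint, in 43.0%, against 29.996% of other bins by midpoint; under 9 other settings it moved by less than its interval. The cause of these shifts was not tested. Depth limits the precision of single boundaries, which had a median of 140 crossing contacts in the vehicle library.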

Other observations

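On chromosome X, which the choice of boundaries left out, the same rule found 51 boundaries in the vehicle library and 56 in the GW4064 library among 3421 bins. They shared 37, of which 9 had a nearly empty bin in the window.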
